A study of Sorghum bicolor with 18 samples.

Results

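Cysteine-rich, lectin and wall-associated receptor kinases were measured in the axillary buds of Sorghum bicolor (sorghum, the cultivar 100M) after removal of the leaf that covers the bud. In the leaf-removed groups the coleoptile and the first leaf were peeled from 7-day-old plants, and the exposed buds of the first leaf axil were taken 1, 3 or 6 h later. In the intact groups nothing was removed, and the same buds were taken at the same 3 times. Each library was made from a pool of 15 buds, and each of the 6 groups had 3 libraries, the best of 4 pools by RNA quality. The members were the 276 of 34211 genes in the table whose title, taken from the paired Arabidopsis gene, named a kinase of these families. They comprised 72 cysteine-rich kinases, 69 S-locus lectin kinases, 50 L-type lectin kinases (titled Concanavalin A-like), 11 other lectin kinases and 74 wall-associated kinases.

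These proteins sit in the plasma membrane, with an outer domain that faces the cell wall and a kinase domain inside the cell. The outer domain of cysteine-rich kinases carries repeated cysteine motifs, and in Arabidopsis many of the genes respond to pathogens, salicylic acid and reactive oxygen. S-locus lectin kinases include the Brassica receptor of self-incompatibility, and L-type lectin kinases include the Arabidopsis receptor of extracellular ATP, a molecule released by damaged cells. Wall-associated kinases bind pectin and its fragments, and in Arabidopsis they act in cell expansion and in defence. Symbols such as CRK2 or WAK5 below are those of the paired Arabidopsis gene, and several sorghum genes share one. The 276 members map to 53 Arabidopsis loci with 30 symbols.

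Of the 276 members, 37 had no read in any library, 110 had too few reads to be tested (at most 98 in all 18 libraries together) and 129 were tested. Tested were 44 cysteine-rich, 36 S-locus lectin, 19 L-type lectin, 5 other lectin and 25 wall-associated members. The filter keeps a gene that reaches enough reads in 3 libraries, so a rare member can enter through the group in which it is high. For such a member the direction was favoured in advance, and its adjusted p-value is no support for that direction. Most members were lowly expressed: their median level in intact buds was 0.667 RPKM, a unit per length, against 6.69 RPKM over the 21852 genes tested. Of the tested members, 111 had more than 99% uniquely placed reads and 11 had less than 90%.

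Exon reads per library ranged from 21.4 M to 45.8 M, of which 97.0% to 97.6% were unique. Of 11 genes annotated as KNOTTED-like, which mark shoot meristems, 10 had reads in all 18 libraries. Whole buds were harvested, so fewer cells of a type and less RNA per cell cannot be told apart. A set of 5 libraries deviated from their group means in a like way, and each had the highest share of intron reads in its group (4.65% to 7.23%): leaf-removed 1 h replicate d, leaf-removed 3 h replicate b, leaf-removed 6 h replicate d, intact 1 h replicate c and intact 6 h replicate d. Each of these also had the lowest summed level of L-type lectin kinases in its group, and counts are given with and without them. They were picked for deviating in these same data, so leaving them out narrows the spread within groups. Levels below are CPM, reads scaled to 1000000 per library, in the order of the replicate letters, n = 3 libraries per group. Log2 fold changes are leaf-removed over intact with their standard error (SE), and adjusted p-values come from the edgeR quasi-likelihood test over all 21852 genes.

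At 1 h the members were more often higher than lower in leaf-removed buds, and by 6 h both directions were about as frequent. At 1 h, 43 of the 129 tested members were higher (24.8% of all tested genes were) and 23 were lower (24.1% of all tested genes), 66 in all (48.9% of all tested genes). At 3 h, 23 were higher (17.8% of all genes) and 21 were lower (16.2%), and at 6 h, 18 were higher (18%) and 22 were lower (15.9%). As shares of the tested members, 33.3% were higher and 17.8% lower at 1 h. At 3 h the shares were 17.8% and 16.3%, close to the background. The median log2 fold change of the tested members was 0.28 at 1 h, -0.03 at 3 h and -0.26 at 6 h, against -0.01, 0.00 and -0.03 over all tested genes.

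The count of higher members depended on the rare ones. Where only genes with at least 1 CPM in 9 libraries were tested, 79 members remained, of which 23 were higher (25.4% of genes) and 19 lower (26.3% of genes) at 1 h. Under that filter 12 were higher (20.3% of genes) and 19 lower (16.3%) at 3 h, and 9 were higher (21.6%) and 18 lower (16.5%) at 6 h. Scaling by library totals moved the median of all genes to -0.25, -0.12 and -0.21 at 1, 3 and 6 h. It left 37 members higher (19.0% of genes) and 28 lower (33.2%) at 1 h, 20 higher (13.9%) and 22 lower (20.3%) at 3 h, and 17 higher (11.9%) and 32 lower (24.1%) at 6 h. At 6 h 34.7% of the calls were then higher, against 45.0% with TMM scaling. Without the 5 libraries named above, 133 members were tested, of which 48 were higher (27.6% of genes) and 22 lower (26.4%) at 1 h. In that fit 25 were higher (24.1%) and 26 lower (23.0%) at 3 h, and 18 were higher (21.6%) and 26 lower (20.5%) at 6 h. The count of lower members at 6 h was 14 without leaf-removed 6 h replicate b.

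**Figure D1:**
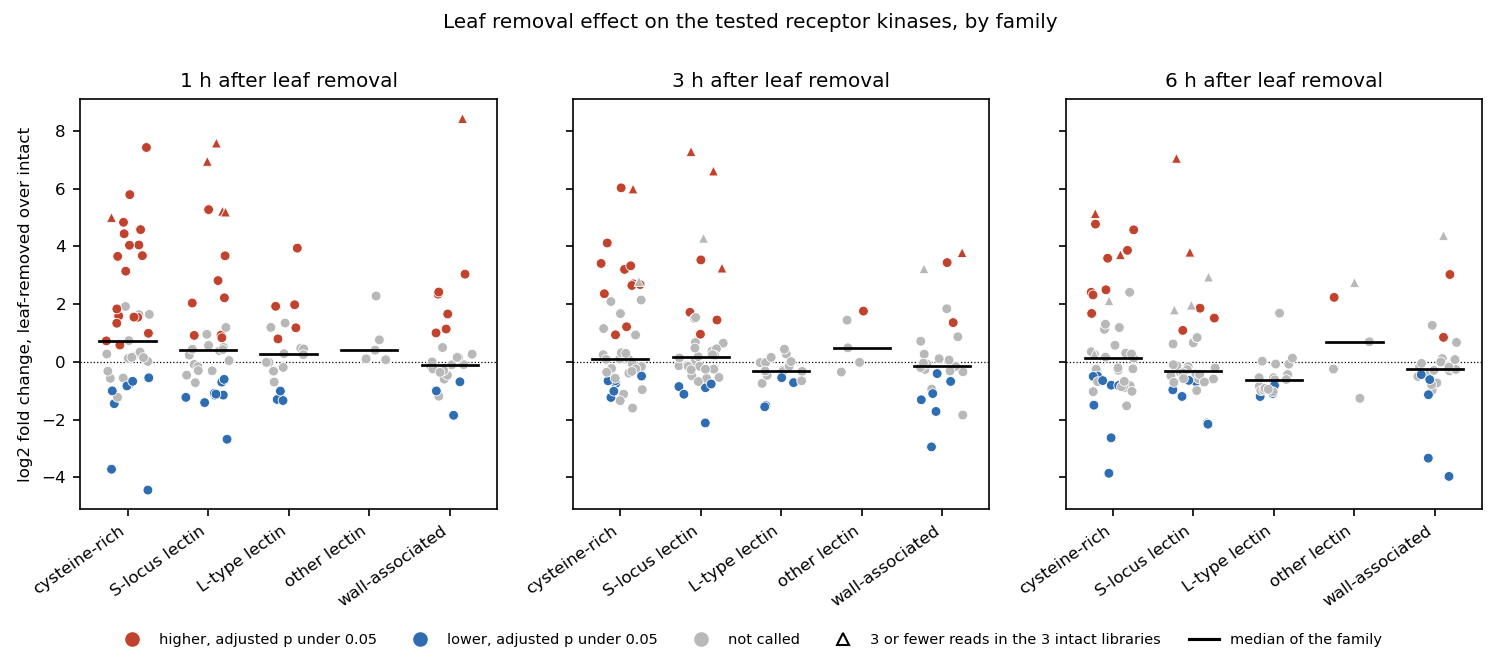
Leaf-removed over intact, log2 fold change (y axis) for each of the 129 tested members, by family (x axis) and time (panels). Red and blue points passed an adjusted p of 0.05, triangles had 3 or fewer reads in the 3 intact libraries, and lines are family medians. The cysteine-rich family reaches furthest above 0 at 1 h among members with more than 3 intact reads. Of its 44 members 19 are higher at that time (24.8% of all tested genes were).

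By family, 19 cysteine-rich kinases were higher against 8 lower at 1 h, 12 against 6 at 3 h and 10 against 8 at 6 h. Among S-locus lectin kinases the counts were 12 higher against 9 lower at 1 h, 7 against 5 at 3 h and 5 against 6 at 6 h. Their shares at 3 h (19.4% and 13.9%) and 6 h (13.9% and 16.7%) were near those of all genes. Of the L-type lectin kinases, 5 were higher against 3 lower at 1 h (26.3% and 15.8%). None was higher later, with 4 lower at 3 h (21.1%) and 3 lower at 6 h (15.8%). Wall-associated kinases had 7 higher against 3 lower at 1 h, 3 against 6 at 3 h and 2 against 5 at 6 h. These counts depended on the rare members too. Under a filter of 1 CPM in 9 libraries, 25.4% of all genes were higher and 26.3% lower at 1 h. At 3 h these shares were 20.3% and 16.3%, and at 6 h 21.6% and 16.5%. Where at least 1 CPM in 9 libraries was required, 6 of 23 S-locus lectin kinases were higher against 8 lower at 1 h, with a median log2 fold change of -0.27 against 0.40 with all tested, and 4 against 5 at 3 h. Of 16 wall-associated kinases, 2 were then higher against 3 lower at 1 h. L-type counts at 1 h became 3 against 3, and cysteine-rich counts became 12 against 5 of 23 at 1 h and 5 against 6 at 6 h. With library totals, 19.0% of all genes were higher and 33.2% lower at 1 h, and 11.9% and 24.1% at 6 h. The cysteine-rich counts at 6 h then became 10 higher against 12 lower. S-locus counts became 11 against 11 at 1 h and 5 against 10 at 6 h, L-type counts 3 against 3 at 1 h and none against 5 at 6 h, and wall-associated counts 6 against 6 at 1 h and 1 against 5 at 6 h.

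Summed over all 276 members, the level at 1 h was 1346, 1445 and 1395 CPM in leaf-removed buds, against 736, 880.1 and 788 CPM in intact buds. All 3 leaf-removed libraries lay above all intact ones at this time. At 3 h the sums were 775, 711 and 697 CPM in leaf-removed buds and 759, 745 and 742 CPM in intact buds, which overlap. At 6 h they were 644, 573 and 626 CPM in leaf-removed buds, below 767, 715 and 781 CPM in intact buds. The cysteine-rich kinases carried most of the difference at 1 h, with 883 ± 38.9 CPM in leaf-removed buds and 369 ± 47.6 CPM in intact buds (SD, n = 3 each). A single gene, the CRK41-annotated Sobic.005G096600, made up 18.1% of the sum over all members in leaf-removed buds at 1 h.

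**Figure D2:**
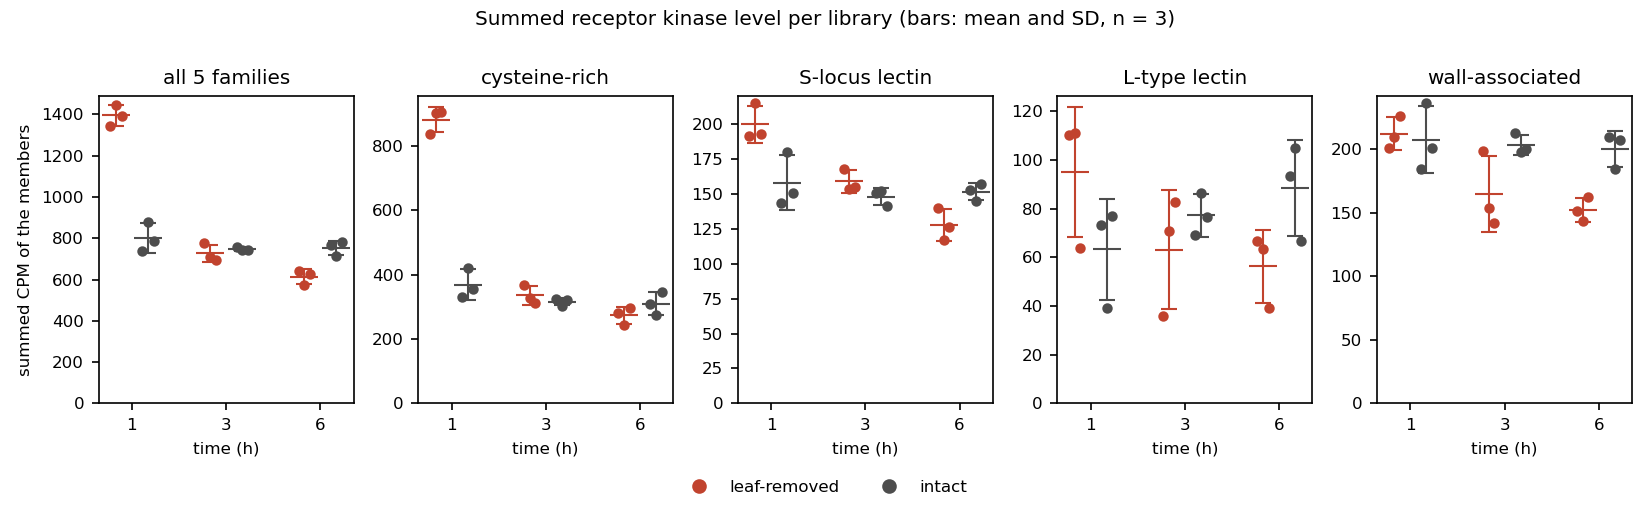
Summed CPM of the members (y axis, from 0) in each library at 1, 3 and 6 h (x axis), for all members and for the 4 larger families. Points are libraries, red for leaf-removed and grey for intact, and bars are the mean and SD (n = 3). The leaf-removed libraries stand above the intact ones at 1 h in the cysteine-rich panel, at 838 to 908 CPM against 330 to 422 CPM.

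The cysteine-rich kinases held the members with the smallest p-values at 1 h. The smallest belonged to Sobic.009G030600, annotated as CRK2, a kinase that in Arabidopsis acts with the respiratory burst oxidase in salt and defence responses. Its level at 1 h was 18.4, 18.8 and 11.1 CPM in leaf-removed buds, against 0.0641, 0.110 and 0.0908 CPM in intact buds. At 3 h it was 1.52, 3.02 and 5.29 CPM in leaf-removed buds, against 0.110, 0.0375 and 0 CPM in intact buds. At 6 h it was 2.37, 2.05 and 1.05 CPM in leaf-removed buds, against 0.128, 0.0366 and 0.0630 CPM in intact buds. The gene was thus close to the limit of detection in intact buds, with 9, 4 and 6 reads over the 3 intact libraries at 1, 3 and 6 h, and was read in every leaf-removed library without overlap. Sobic.009G030600 passed the filter through leaf-removed libraries alone, so a rise was favoured in advance. Its adjusted p-values are no support for the direction. Its log2 fold change was 7.43 ± 0.63 at 1 h (adjusted p = 1.3e-07), 6.03 ± 0.68 at 3 h (adjusted p = 5.9e-06) and 4.57 ± 0.65 at 6 h (adjusted p = 6.5e-05). The value at 3 h was 7.33 without intact 3 h replicate a and 5.38 without intact 3 h replicate c.

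Sobic.005G096600, annotated as CRK41, took the largest share of the members' reads in leaf-removed buds at 1 h. It stood at 231, 250.2 and 276 CPM in leaf-removed buds, against 11.4, 17.9 and 16.7 CPM in intact buds at 1 h. At 3 h the levels were 62.9, 36.2 and 35.4 CPM in leaf-removed buds, against 4.73, 3.60 and 5.05 CPM in intact buds. At 6 h they were 16.6, 12.8 and 23.2 CPM in leaf-removed buds, against 3.92, 2.85 and 9.48 CPM in intact buds. The groups did not overlap at any time, and both declined after 1 h. The log2 fold change was 4.04 ± 0.38 at 1 h (adjusted p = 3.9e-07), 3.33 ± 0.38 at 3 h (adjusted p = 6.9e-06) and 1.68 ± 0.36 at 6 h (adjusted p = 0.0021), and the last was 2.42 without intact 6 h replicate d. Only 57.8% of its reads were uniquely placed, so part of the level may belong to a similar gene. With unique reads alone the log2 fold changes were 4.12, 3.27 and 1.41.

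A pair of genes with neighbouring identifiers, Sobic.005G095900 (CRK20) and Sobic.005G094800 (CRK40), were the most highly expressed members per length in intact buds, at 25.9 and 18.7 RPKM on average over the 9 intact libraries. Sobic.005G095900 had 165, 171 and 187 CPM in leaf-removed buds at 1 h, against 52.3, 72.3 and 54.7 CPM in intact buds. Its levels overlapped at 3 h and at 6 h, where it had 35.4, 28.2 and 35.2 CPM in leaf-removed buds and 39.5, 29.8 and 44.9 CPM in intact buds. The log2 fold change was 1.55 ± 0.18 at 1 h (adjusted p = 3.5e-06) and -0.21 ± 0.18 at 6 h (adjusted p = 0.39), and these differed by -1.75 ± 0.25 (adjusted p = 5.2e-05). Sobic.005G094800 had 70.3, 70.2 and 92.8 CPM in leaf-removed buds at 1 h, against 33.6, 47.8 and 36.1 CPM in intact buds. At 6 h it was below the intact level, with 15.3, 11.8 and 14.7 CPM in leaf-removed buds and 27.8, 15.4 and 30.6 CPM in intact buds. The log2 fold change was 0.99 ± 0.24 at 1 h (adjusted p = 0.0026) and -0.82 ± 0.24 at 6 h (adjusted p = 0.016). The call at 6 h was lost without leaf-removed 6 h replicate b or intact 6 h replicate a or d (log2 fold change -0.71, -0.70 and -0.58, with adjusted p = 0.070, 0.064 and 0.11).

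In all, 8 cysteine-rich kinases were higher at 1, 3 and 6 h, of 13 members with that pattern (6.69% of all tested genes had it). Besides CRK2 and CRK41 they included Sobic.002G326500 (CRK23), Sobic.002G328400 (CRK10) and a second CRK2-annotated gene, Sobic.003G188000. Sobic.002G326500 had 28.4, 33.4 and 18.5 CPM in leaf-removed buds at 1 h, against 1.25, 0.578 and 1.88 CPM in intact buds. Its log2 fold change was 4.44 ± 0.45, 2.70 ± 0.42 and 2.41 ± 0.44 at 1, 3 and 6 h (adjusted p = 8.6e-07, 1.4e-04 and 6.0e-04). Sobic.002G328400 had 19.3, 23.0 and 9.71 CPM in leaf-removed buds at 1 h, against 0.673, 0.936 and 0.545 CPM in intact buds. Its log2 fold change was 4.58 ± 0.53, 4.12 ± 0.58 and 3.59 ± 0.59 at 1, 3 and 6 h, and the value at 3 h was 4.88 without intact 3 h replicate b. Sobic.003G188000 had 3.85, 3.57 and 4.58 CPM in leaf-removed buds at 1 h, against 0.288, 0.303 and 0.121 CPM in intact buds, and 2.48, 1.64 and 1.34 CPM in leaf-removed buds at 6 h, against 0.170, 0.0366 and 0 CPM in intact buds. Its log2 fold change was 4.05 ± 0.55 at 1 h, 2.36 ± 0.54 at 3 h and 4.77 ± 0.65 at 6 h, and the last was 6.44 without intact 6 h replicate a and 4.18 without intact 6 h replicate d.

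The remaining 3 of these 8, named after their values were seen, were Sobic.002G326800 (CRK20), Sobic.002G327300 (CRK10) and Sobic.009G181300 (CRK25). Their log2 fold changes at 1 h were 3.68 ± 0.72, 4.83 ± 0.60 and 3.14 ± 0.75. The call of Sobic.002G327300 at 6 h was lost without leaf-removed 6 h replicate a (log2 fold change 1.96, adjusted p = 0.053). For Sobic.009G181300 the call at 3 h was lost without intact 3 h replicate a (2.37, adjusted p = 0.051), and the call at 6 h without leaf-removed 6 h replicate a or intact 6 h replicate a or d (2.19, 2.34 and 2.47, with adjusted p = 0.067, 0.072 and 0.055). Its value at 1 h was 4.11 without intact 1 h replicate d. Leaving out intact 3 h replicate b or c gave 4.38 and 2.55 for Sobic.002G327300 at 3 h (3.20 with all libraries). Leaving out intact 6 h replicate c or d gave 5.66 and 3.28 for Sobic.002G326800 at 6 h (3.86 with all libraries).

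Other cysteine-rich kinases were lower. Rare Sobic.001G277500 (CRK23) had log2 fold changes of -4.44 ± 1.26 at 1 h and -3.86 ± 1.15 at 6 h (adjusted p = 0.0082 and 0.016). For Sobic.001G277600 (CRK10) they were -3.72 ± 0.77 and -2.63 ± 0.60 (adjusted p = 8.2e-04 and 0.0030). The groups of both overlapped at 3 h. Both were chosen after their values were seen and passed the filter through intact libraries, so a fall was favoured in advance. Sobic.004G035400, annotated as CRK7 and among the more highly expressed members, had 20.1, 20.5 and 25.9 CPM in leaf-removed buds at 1 h, against 32.3, 47.9 and 38.3 CPM in intact buds. The level stayed below at 6 h, with 19.7, 22.8 and 29.4 CPM in leaf-removed buds and 42.3, 36.2 and 47.2 CPM in intact buds. Its log2 fold change was -0.83 ± 0.17, -0.74 ± 0.17 and -0.81 ± 0.17 at 1, 3 and 6 h (adjusted p = 8.4e-04, 0.0034 and 0.0020). It was 1 of 3 members lower at all 3 times (4.01% of all tested genes were), with the wall-associated Sobic.008G052600 and the S-locus lectin kinase Sobic.010G175100.

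Sobic.008G021400 (CRK12) was lower late only. It had 45.1, 48.1 and 54.3 CPM in leaf-removed buds at 1 h and 39.0, 44.0 and 47.2 CPM in intact buds, which overlap. At 3 h it had 41.6, 30.8 and 34.7 CPM in leaf-removed buds, against 49.9, 49.2 and 51.7 CPM in intact buds (log2 fold change -0.49 ± 0.12, adjusted p = 0.0054). The value at 6 h was also -0.49 ± 0.12 (adjusted p = 0.0056), and that call was lost without intact 6 h replicate d (-0.39, adjusted p = 0.0502). Sobic.010G242300 (CRK23) had a log2 fold change of 0.16 ± 0.20 at 1 h (adjusted p = 0.55) and -1.02 ± 0.20 at 3 h (adjusted p = 0.0012). At 6 h it was -0.65 ± 0.20 (adjusted p = 0.021), a call lost without leaf-removed 6 h replicate b or d or intact 6 h replicate a or d (-0.53, -0.56, -0.62 and -0.56, with adjusted p = 0.058 to 0.096).

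**Figure D3:**
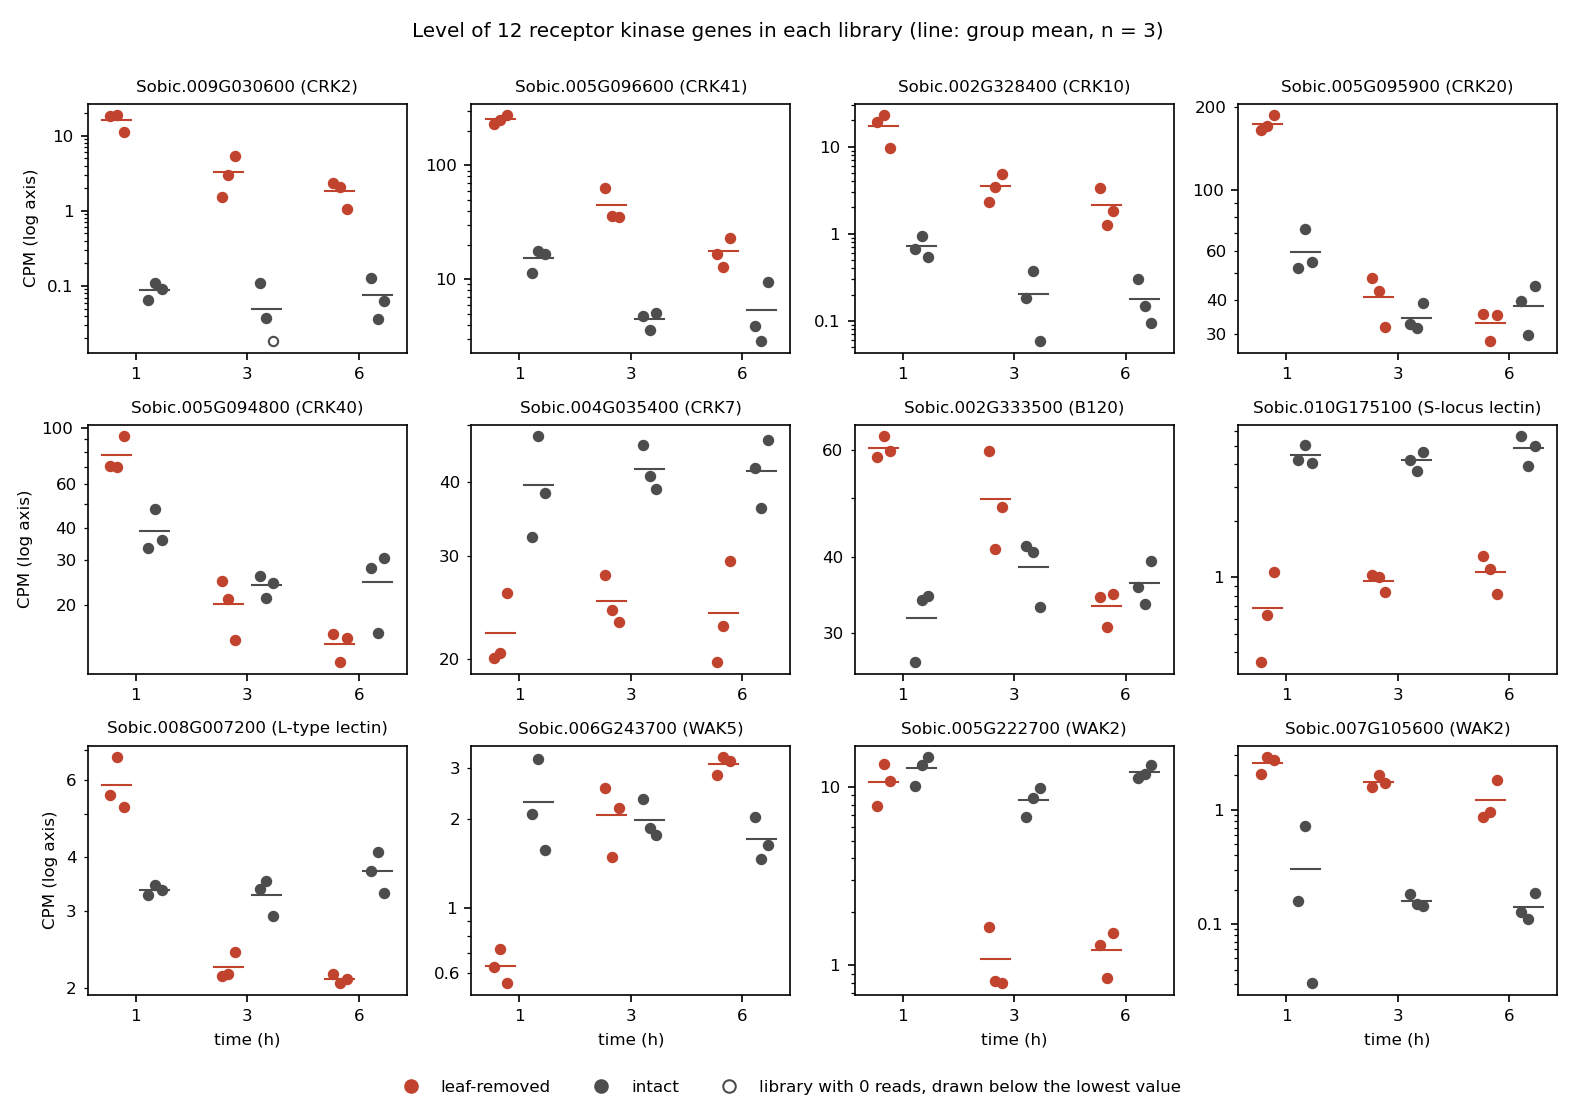
Level in CPM (y axis, logarithmic, with its own range in each panel) of 12 members in each library at 1, 3 and 6 h (x axis). Points are libraries, red for leaf-removed and grey for intact, lines are group means (n = 3), and an open point is a library with 0 reads. CRK2, CRK41 and CRK10 stand apart from intact buds at all 3 times, while CRK20 and CRK40 do so upward at 1 h only.

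Many cysteine-rich kinases have neighbouring identifiers, and 47 of the 72 fell into 14 runs of identifiers at most 1000 apart. The longest run held 19 members, from Sobic.002G326200 to Sobic.002G329100, of which 16 were tested, all with more than 99% uniquely placed reads. At 1 h, 9 of the 16 were higher against 1 lower (24.8% and 24.1% of all tested genes were). The counts were 6 against 1 at 3 h (17.8% and 16.2% of all tested genes) and 4 against 1 at 6 h (18% and 15.9%). Log2 fold changes in the run ranged from -1.45 to 5.79 at 1 h, with a median of 1.62. The members at its end went the other way: Sobic.002G329000 and Sobic.002G329100, both annotated as CRK10 like several of the genes that were higher. Sobic.002G329000 had 1.22, 0.845 and 1.05 CPM in leaf-removed buds at 6 h, against 2.68, 2.74 and 3.37 CPM in intact buds (log2 fold change -1.50 ± 0.36, adjusted p = 0.0044). Sobic.002G329100, named after its values were seen, had 0.472, 0.820 and 0.590 CPM in leaf-removed buds at 1 h, against 1.44, 2.18 and 1.51 CPM in intact buds (log2 fold change -1.45 ± 0.41, adjusted p = 0.0084). Genes with the same Arabidopsis counterpart and neighbouring identifiers thus differed in direction. In a shorter run of 4 members, Sobic.005G094800 to Sobic.005G096600, all 3 tested members were higher at 1 h (24.8% of all tested genes were).

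**Figure D4:**
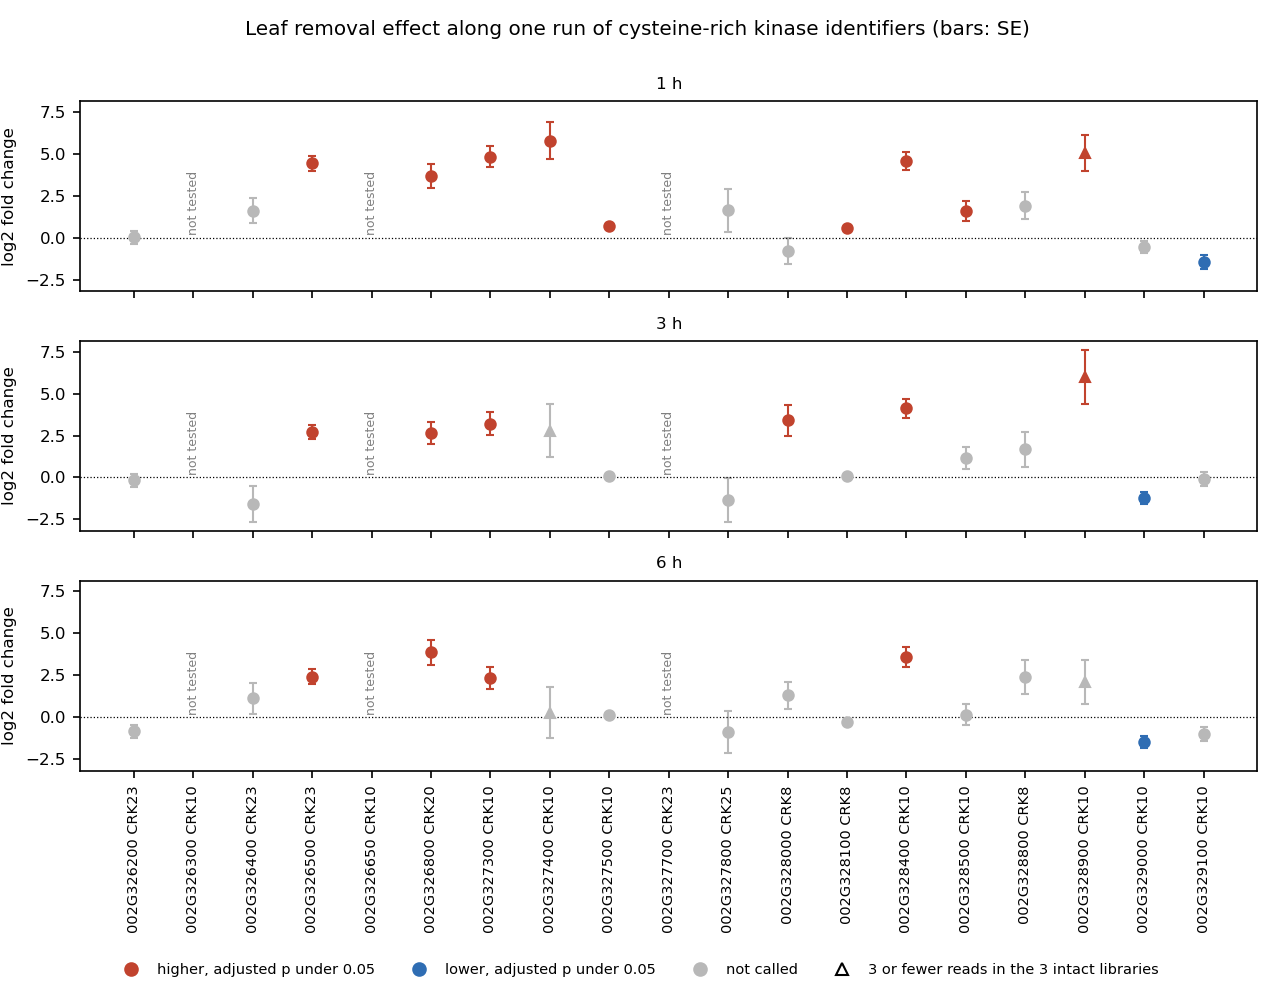
Leaf-removed over intact, log2 fold change (y axis) with SE bars for the 19 cysteine-rich kinases of one run of identifiers, in identifier order (x axis), at 1, 3 and 6 h (panels). Red and blue points passed an adjusted p of 0.05, and triangles had 3 or fewer intact reads. Of the 16 tested genes 9 are higher at 1 h (24.8% of all tested genes were), and the last 2 lie below 0 at that time.

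S-locus lectin kinases changed in both directions. Sobic.002G333500, annotated as B120, was the most highly expressed of them per length in intact buds at 10.2 RPKM. It had 58.3, 63.3 and 59.7 CPM in leaf-removed buds at 1 h, against 26.8, 34.0 and 34.5 CPM in intact buds, and at 6 h the levels overlapped, with 34.3, 30.7 and 34.7 CPM in leaf-removed buds and 35.7, 33.4 and 39.4 CPM in intact buds. The log2 fold change was 0.93 ± 0.14 at 1 h (adjusted p = 5.6e-05), 0.37 ± 0.14 at 3 h (adjusted p = 0.053) and -0.12 ± 0.14 at 6 h (adjusted p = 0.54). Sobic.002G334900 was also higher at 1 h alone, at 22.6, 30.9 and 25.3 CPM in leaf-removed buds and 13.3, 14.4 and 14.0 CPM in intact buds. Its log2 fold change was 0.92 ± 0.15 at 1 h (adjusted p = 7.9e-05) and -0.17 ± 0.15 at 6 h (adjusted p = 0.40).

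A second B120-annotated gene, Sobic.004G264000, stayed higher. It had 6.33, 8.54 and 3.28 CPM in leaf-removed buds at 1 h, against 0.449, 0.358 and 0.606 CPM in intact buds, and 3.42, 2.75 and 1.91 CPM in leaf-removed buds at 6 h, against 1.19, 0.622 and 0.441 CPM in intact buds. The log2 fold change was 3.67 ± 0.49 at 1 h (adjusted p = 1.5e-05), 1.72 ± 0.46 at 3 h (adjusted p = 0.0087) and 1.86 ± 0.47 at 6 h (adjusted p = 0.0059). The call at 3 h was lost without leaf-removed 3 h replicate d (1.15, adjusted p = 0.069). Sobic.002G302500 was also higher at all 3 times, at 5.03, 4.63 and 4.65 CPM in leaf-removed buds and 0.929, 1.21 and 1.33 CPM in intact buds at 1 h. On the log2 scale the fold change was 2.04 ± 0.33 at 1 h and 1.52 ± 0.33 at 6 h (adjusted p = 9.1e-05 and 0.0023). At 3 h it was 0.96 ± 0.33 (adjusted p = 0.036), a call lost without leaf-removed 3 h replicate c or d or intact 3 h replicate a or b (0.94, 0.79, 0.96 and 0.89, with adjusted p = 0.078 to 0.13).

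Several S-locus lectin kinases were read almost only after leaf removal, and the S-locus members in this paragraph were named after their values were seen. Sobic.010G272300 and Sobic.009G018200 had 0 reads in all 9 intact libraries, as had 1 other tested member, the wall-associated Sobic.005G070200. These 3 passed the filter through leaf-removed libraries alone, so their direction was fixed in advance. Their adjusted p-values are no support for it. Sobic.002G333400 and Sobic.002G224400, with few intact reads, also passed the filter through leaf-removed libraries alone. A rise was thus favoured in advance for them too, and their calls are no support for the direction. Sobic.010G272300 had 11, 36 and 53 reads over the 3 leaf-removed libraries at 1, 3 and 6 h, with 0.827, 0.580 and 0.286 CPM at 6 h. Against a floor of 3 reads over the intact group it was at least 5.03-fold higher at 1 h, 12.6-fold at 3 h and 16.2-fold at 6 h (adjusted p = 0.0083, 0.0024 and 0.0016). Sobic.009G018200 had 0.432, 0.724 and 0.443 CPM in leaf-removed buds at 1 h, at least 17.4-fold higher (adjusted p = 0.0049), and 7 reads and 1 read at 3 and 6 h in leaf-removed buds. Sobic.002G333400, also annotated as B120, had 3.03, 4.49 and 0.701 CPM in leaf-removed buds at 1 h (189 reads) and a single read in intact buds, a ratio of 259 with a 95% counting interval of 46.0 to 10298. Its fitted log2 fold change of 7.58 was 6.97 without leaf-removed 1 h replicate c and 9.23 without intact 1 h replicate d. Intervals and floors cover counting error only. Sobic.002G224400 had 1.57, 1.79 and 1.77 CPM in leaf-removed buds at 1 h, against 0, 0 and 0.121 CPM in intact buds. It had 4, 4 and 1 reads in intact buds at 1, 3 and 6 h, and its log2 fold changes were 5.27 ± 0.93, 3.53 ± 0.94 and 3.80 ± 1.22. Leaving out intact 1 h replicate b, c or d gave 4.69, 4.69 and 8.56 at 1 h, leaving out intact 3 h replicate b or c gave 4.83 and 2.90 at 3 h, and leaving out intact 6 h replicate c gave 5.74 at 6 h. The call at 6 h was lost without leaf-removed 6 h replicate a or b or intact 6 h replicate a or d (log2 fold change 3.71, 3.28, 3.43 and 3.30, with adjusted p = 0.052 to 0.094).

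Sobic.010G175100 had the lowest fold of the S-locus lectin kinases. It had 0.354, 0.627 and 1.07 CPM in leaf-removed buds at 1 h, against 4.20, 5.04 and 4.06 CPM in intact buds. At 6 h it had 1.29, 1.11 and 0.811 CPM in leaf-removed buds, against 5.62, 3.91 and 4.97 CPM in intact buds. The groups lay apart at all 3 times, with log2 fold changes of -2.68 ± 0.33, -2.12 ± 0.31 and -2.16 ± 0.31 at 1, 3 and 6 h (adjusted p = 5.8e-06, 8.9e-05 and 8.2e-05), and the first was -3.27 without leaf-removed 1 h replicate d. Sobic.010G174900, which has a neighbouring identifier, was lower at 1 h (log2 fold change -1.12 ± 0.25, adjusted p = 0.0016).

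Sobic.009G082700 was higher only later. It had 8.49, 12.02 and 9.19 CPM in leaf-removed buds at 1 h and 11.5, 18.3 and 11.1 CPM in intact buds, which overlap. At 3 h it had 20.5, 18.9 and 15.6 CPM in leaf-removed buds, against 5.75, 6.64 and 7.74 CPM in intact buds, and at 6 h 12.3, 9.78 and 13.5 CPM in leaf-removed buds, against 6.30, 4.32 and 6.08 CPM in intact buds. Fitted as a log2 ratio, the fold change was -0.46 ± 0.22 at 1 h (adjusted p = 0.10), 1.45 ± 0.23 at 3 h (adjusted p = 1.4e-04) and 1.09 ± 0.23 at 6 h (adjusted p = 0.0017). Its level in intact buds also changed with time, by -1.29 on the log2 scale between 1 h and 6 h (adjusted p = 0.0025 over the 3 times).

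Among L-type lectin kinases, Sobic.008G007200 was higher early and lower late. It had 5.54, 6.76 and 5.20 CPM in leaf-removed buds at 1 h, against 3.27, 3.44 and 3.36 CPM in intact buds. By 6 h it had 2.16, 2.05 and 2.10 CPM in leaf-removed buds, against 3.70, 4.10 and 3.31 CPM in intact buds. The groups lay apart on opposite sides, with log2 fold changes of 0.79 ± 0.18 at 1 h (adjusted p = 0.0017) and -0.81 ± 0.18 at 6 h (adjusted p = 0.0030), and the difference between them was -1.61 ± 0.26 (adjusted p = 1.5e-04). With Sobic.005G094800 it was 1 of 2 members higher at 1 h and lower at 6 h (2.91% of all tested genes were). Sobic.002G377400, with 87.4% uniquely placed reads, was lower at 6 h, with 1.76, 1.50 and 1.62 CPM in leaf-removed buds and 3.96, 3.62 and 3.65 CPM in intact buds (log2 fold change -1.20 ± 0.25, adjusted p = 0.0019).

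Other L-type members varied with the 5 libraries of high intron share. Leaving these out narrows the spread by selection, so a smaller adjusted p-value without them is no support for an effect. It also leaves fewer libraries in every group but intact 3 h. Sobic.009G026800 had 35.7, 29.0 and 10.7 CPM in leaf-removed buds at 1 h, against 9.04, 0.991 and 9.14 CPM in intact buds, and the third leaf-removed and second intact value came from libraries with a high intron share. Fitted as a log2 ratio, the fold change at 1 h was 1.98 ± 0.77 (adjusted p = 0.043), and 1.83 without the 5 libraries (adjusted p = 2.2e-05). That call was lost when any 1 of 13 libraries was left out: leaf-removed 1 h replicates b and c, leaf-removed 3 h replicate c, leaf-removed 6 h replicates a and b, all 3 intact libraries of 1 h and of 3 h, and intact 6 h replicates a and c. The values then ran from 1.46 without intact 1 h replicate c to 2.24 without intact 1 h replicate b. At 3 h it was 0.16 ± 0.75 (adjusted p = 0.90), and 0.63 without the 5 libraries (adjusted p = 0.029). By 6 h it was -1.04 ± 0.76 (adjusted p = 0.31), and -0.99 without them (adjusted p = 0.0056). Sobic.010G119300 had 1.91, 4.25 and 4.84 CPM in leaf-removed buds at 3 h, against 9.71, 10.8 and 11.7 CPM in intact buds (log2 fold change -1.56 ± 0.49, adjusted p = 0.021, and -1.24 without the 5 libraries, adjusted p = 3.2e-05). It was not called without leaf-removed 3 h replicate b or intact 3 h replicate c (-1.24 and -1.49, with adjusted p = 0.081 and 0.056). With the intron share of each library as a covariate, the log2 fold change of Sobic.009G026800 was 0.76 at 1 h (adjusted p = 0.027), -0.87 at 3 h (adjusted p = 0.0099) and -0.995 at 6 h (adjusted p = 0.0037). That of Sobic.010G119300 was -0.96 at 1 h (-0.19 without the covariate), -2.07 at 3 h and -0.94 at 6 h (adjusted p = 3.9e-04, 8.2e-08 and 2.0e-04). Without the 5 libraries the L-type counts were 6 higher against 4 lower of 20 tested at 1 h, 1 against 3 at 3 h and 1 against 6 at 6 h, and the shares of all genes in that fit are those given with its counts over all members. With the covariate they were 3 against 5 of 19 at 1 h, none against 8 at 3 h and none against 6 at 6 h. The share of all genes called with the covariate is not given here, so these counts do not set L-type members apart.

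Sobic.006G192900, a rare L-type member, had 1.69, 1.69 and 0.554 CPM in leaf-removed buds at 1 h, against 0.128, 0 and 0.121 CPM in intact buds (log2 fold change 3.94 ± 1.01, adjusted p = 0.0042). The value was 3.34 without intact 1 h replicate c and 2.77 with the intron covariate. At 3 and 6 h its groups overlapped. Lower at 1 h were Sobic.001G310800, Sobic.004G262500 and Sobic.005G075200, with log2 fold changes of -1.30 ± 0.41, -1.34 ± 0.39 and -1.01 ± 0.32 (adjusted p = 0.016, 0.0097 and 0.015), the first of which was -2.00 without leaf-removed 1 h replicate c. None of the 5 other lectin kinases tested was called at 1 h (48.9% of all tested genes were). The single calls in that family, named after their values were seen, were Sobic.006G246001 at 3 h (log2 fold change 1.76 ± 0.65, adjusted p = 0.047), which was lost without any 1 of 12 libraries (1.29 to 2.11), and Sobic.007G077766 at 6 h (log2 fold change 2.23 ± 0.66, adjusted p = 0.016), which was lost without leaf-removed 6 h replicate a or b or intact 6 h replicate c (1.93, 2.07 and 2.13, with adjusted p = 0.061, 0.053 and 0.055).

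Wall-associated kinases differed in their courses. Sobic.005G222700, annotated as WAK2, a pectin-binding kinase needed for cell expansion in Arabidopsis, had 7.86, 13.5 and 10.9 CPM in leaf-removed buds at 1 h and 10.2, 13.3 and 14.8 CPM in intact buds, which overlap. At 3 h it had 1.65, 0.819 and 0.794 CPM in leaf-removed buds, against 6.81, 8.66 and 9.92 CPM in intact buds. By 6 h it had 1.29, 0.845 and 1.53 CPM in leaf-removed buds, against 11.3, 11.9 and 13.3 CPM in intact buds. The level in leaf-removed buds at 6 h was 9.90% of that in intact buds by the fitted fold. Across both groups the log2 fold change was -0.25 ± 0.27 at 1 h (adjusted p = 0.48), -2.95 ± 0.31 at 3 h (adjusted p = 3.0e-06) and -3.34 ± 0.31 at 6 h (adjusted p = 1.6e-06), and the difference between 6 h and 1 h was -3.09 ± 0.41 (adjusted p = 2.4e-05).

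Another WAK2-annotated gene, Sobic.007G105600, was higher at all 3 times. It had 2.04, 2.90 and 2.73 CPM in leaf-removed buds at 1 h, against 0.160, 0.716 and 0.0303 CPM in intact buds, and 0.863, 0.966 and 1.81 CPM in leaf-removed buds at 6 h, against 0.128, 0.110 and 0.189 CPM in intact buds. In the fit the log2 fold change was 3.04 ± 0.62, 3.44 ± 0.67 and 3.03 ± 0.68 at 1, 3 and 6 h (adjusted p = 7.5e-04, 9.3e-04 and 0.0029), and the first was 4.69 without intact 1 h replicate c and 2.43 without intact 1 h replicate d. A further WAK2-annotated gene, Sobic.005G070200, had 2.12, 1.88 and 0.554 CPM in leaf-removed buds at 1 h and 0 reads in intact buds, at least 49.4-fold higher (adjusted p = 9.7e-04). It passed the filter through leaf-removed libraries alone, so its direction was fixed in advance and the p-value is no support for it. Its later reads in leaf-removed buds numbered 3 at 3 h and 8 at 6 h. Of these 3 genes paired with WAK2, the first was lower at 3 and 6 h, the second was higher at all 3 times and the third was called at 1 h alone.

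Sobic.006G243700, annotated as WAK5, was the only tested member lower at 1 h and higher at 6 h (4.81% of all tested genes were). It had 0.629, 0.724 and 0.554 CPM in leaf-removed buds at 1 h, against 2.08, 3.22 and 1.57 CPM in intact buds, and 2.84, 3.26 and 3.15 CPM in leaf-removed buds at 6 h, against 2.04, 1.46 and 1.64 CPM in intact buds. By the fit, its log2 fold change was -1.85 ± 0.31 at 1 h (adjusted p = 1.4e-04) and 0.85 ± 0.29 at 6 h (adjusted p = 0.035), and the difference was 2.70 ± 0.43 (adjusted p = 1.4e-04). The call at 6 h was lost without any 1 of the leaf-removed 6 h replicates a, b and d or intact 6 h replicate c or d (0.91, 0.81, 0.84, 0.77 and 0.86, with adjusted p = 0.055 to 0.10), and with library totals (0.66, adjusted p = 0.092).

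Sobic.006G201700, a wall-associated kinase without a symbol, had 10.8, 16.9 and 15.5 CPM in leaf-removed buds at 1 h, against 2.69, 4.96 and 6.00 CPM in intact buds (log2 fold change 1.66 ± 0.32, adjusted p = 4.6e-04). At 3 h the log2 fold change was 1.36 ± 0.34 (adjusted p = 0.0055) and at 6 h -0.26 ± 0.35 (adjusted p = 0.59). Sobic.008G052600 had 4.04, 2.98 and 3.10 CPM in leaf-removed buds at 3 h, against 9.09, 8.48 and 7.66 CPM in intact buds (log2 fold change -1.31 ± 0.25, adjusted p = 7.7e-04). Its call at 1 h (-0.69 ± 0.25, adjusted p = 0.029) was lost without leaf-removed 1 h replicate b or c or intact 1 h replicate c (-0.66, -0.70 and -0.66, with adjusted p = 0.070, 0.060 and 0.067). The WAK5-annotated Sobic.010G055000, at 9.96 RPKM in intact buds one of the more abundant members per length, had 25.9, 30.2 and 29.4 CPM in leaf-removed buds at 6 h, against 40.3, 36.3 and 39.8 CPM in intact buds (log2 fold change -0.44 ± 0.10, adjusted p = 0.0026). At 1 h its log2 fold change was 0.00 ± 0.10 (adjusted p = 0.98). Sobic.010G055400 (WAK3), which stood at 11.8 RPKM in intact buds, had only 16.2% uniquely placed reads, and its level is uncertain.

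The effect of leaf removal differed between times less often in the members than over all tested genes, and mostly downward. The members also had a lower median level in intact buds, 0.667 against 6.69 RPKM, and few reads make such a difference harder to detect. The share among genes of like level is not given, and the part played by level was not tested. Between 6 h and 1 h the effect differed in 35 of 129 members, a share of 27.1% (38.1% of all tested genes). Of these, 5 moved up, or 3.88% (18.6% of genes), and 30 moved down, or 23.3% (19.5%). Of the 35, 27 had effects of opposite sign at the 2 times (26.4% of all tested genes had such a difference). Of the 30 that moved down, 22 were called higher at 1 h (14.0% of all tested genes were both), and that call shares its 1 h values with the difference. The 5 that moved up were Sobic.006G243700, Sobic.009G082700, Sobic.005G209400 (CRK25) and, named after their values were seen, Sobic.005G210200 (CRK15) and Sobic.005G089500. Between 3 h and 1 h the effect differed in 24 members, or 18.6% (26.6% of all tested genes). It moved up in 4, or 3.10% (13.4%), and down in 20, or 15.5% (13.2%). The count of 24 was 12 without intact 1 h replicate b and 13 without leaf-removed 1 h replicate c. Between 6 h and 3 h no member passed the edgeR test (3.25% of all tested genes did, 2.35% upward and 0.902% downward), while 13 had an unadjusted p under 0.05 and DESeq2 called 3. In all, 20 members were higher at 1 h and not called later (10.2% of all tested genes), 11 were lower at 6 h and not called at 1 h (7.62%), and 42 were called at no time (33.3%).

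**Figure D5:**
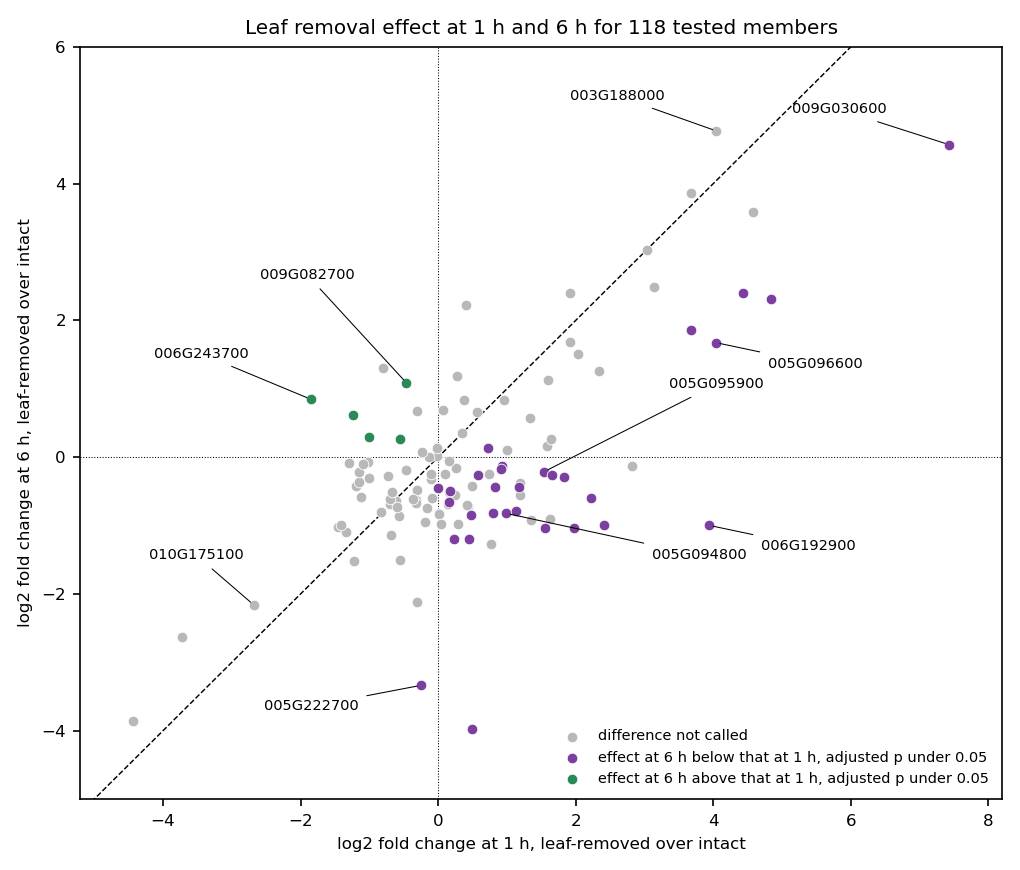
Leaf-removed over intact, log2 fold change at 6 h (y axis) against that at 1 h (x axis) for the 118 tested members with more than 3 intact reads at both times. Purple and green points are members whose effect differed between the times at an adjusted p of 0.05, and the dashed line marks equal effects. Most purple points were above 0 at 1 h and lie near or below 0 at 6 h, while CRK2 (009G030600) stays above 0 at both.

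In intact buds alone, 8 of the 129 members changed over the 3 times (9.72% of all tested genes did). Leaving out replicate c or d of the intact 1 h group gave 3 and 4 members, and leaving out replicate c at 3 h or replicate d at 6 h gave 5 each. They were Sobic.002G328400, Sobic.005G095900, Sobic.005G096600, Sobic.006G201700 and Sobic.009G082700 and, named after their values were seen, Sobic.003G314200 (CRK12), Sobic.006G152200 (annotated RFO1, a Fusarium resistance gene of Arabidopsis) and Sobic.009G082200 (CRK10). In 7 of them the intact level at 3 and 6 h was below that at 1 h, by 0.65 to 2.03 on the log2 scale at 6 h for 6 of these, while Sobic.003G314200 had no intact read at 6 h. Sobic.006G152200 was above its 1 h level at both later times.

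Over the 18 libraries, the members whose log2 CPM had the highest Pearson correlations with that of Sobic.009G030600 were cysteine-rich and S-locus lectin kinases. The first 5 were Sobic.002G328400, Sobic.002G326500, Sobic.002G333400, Sobic.004G264000 and Sobic.002G327300, with Pearson correlations of 0.955, 0.945, 0.939, 0.933 and 0.930. Their Spearman correlations were 0.942, 0.829, 0.869, 0.849 and 0.909, a different order. The points share their libraries and groups, and the values are given as a description.

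Other receptor and signalling families in the same libraries had other counts. Leucine-rich repeat kinases, the largest class of plant receptor kinases, had 34 of 190 tested higher against 59 lower at 1 h, 13 against 51 at 3 h and 13 against 73 at 6 h, with median log2 fold changes of -0.39, -0.26 and -0.55. Malectin-domain kinases, wall sensors such as FERONIA, had 7 of 15 higher against none lower at 1 h, 2 against 6 at 3 h and 1 against 7 at 6 h. LysM and chitin receptors had 7 of 16 higher against 3 lower at 1 h, 2 against 4 at 3 h and 3 against 4 at 6 h. Of 5 co-receptors, 1 was higher against 1 lower at 1 h, none against 5 at 3 h and none against 2 at 6 h. RIN4 proteins, guarded targets of pathogen effectors, had 5 of 8 higher against none lower at 1 h, 1 against 1 at 3 h and 1 against 3 at 6 h. Of 6 respiratory burst oxidases, which make reactive oxygen outside the cell, 2 were higher against 1 lower at 1 h, none against 1 at 3 h and 1 against 1 at 6 h. Receptor-like cytoplasmic kinases had 1 of 4 higher against none lower at 1 h, none against 2 at 3 h and none against 3 at 6 h. ROP exchange factors, which receptor kinases activate at the membrane, had 4 of 13 higher against 4 lower at 1 h, 2 against 4 at 3 h and 2 against 4 at 6 h. A share of higher genes at 1 h above the 24.8% of all tested genes was thus not particular to the members, of which 33.3% were higher. The share was 46.7% of 15 malectin-domain kinases, 43.8% of 16 LysM and chitin receptors and 62.5% of 8 RIN4 proteins, which are small sets. Leucine-rich repeat kinases went the other way, with 17.9% higher. These counts stand side by side, and differences between families were not tested.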

How the data were processed

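RNA-seq libraries were made from pools of 15 axillary buds, per the labels' protocols, with TruSeq kits on an Illumina HiSeq. The authors deposited 1 table of 34211 genes with exon read counts, unique exon and intron read counts and RPKM for each library. RPKM was computed by the authors from reads, exon length and depth. Aligner, genome build and strand setting are not given in the sources used here, so antisense reads cannot be told apart. Members and lists were chosen with earlier results of these data known. Exon counts were fitted with edgeR 4.0.16 in R 4.3.3 (filterByExpr, TMM scaling, quasi-likelihood F tests), in 1 model of 6 groups with 12 residual degrees of freedom. Calls used a Benjamini-Hochberg adjusted p under 0.05, the SE is the log2 fold change divided by the square root of F, and the fit was tested on simulated data. Differences between times were interaction contrasts, and change in intact buds was an F test over the 3 times. CPM used TMM-scaled library sizes, and correlations used log2 CPM with a prior count of 2. P-values measure the spread between pools. Per family and time, up to 3 members higher and 3 lower were named by smallest p, with no overlap and at least 1 CPM in the higher group, besides up to 6 with opposite effects at 6 h and 1 h and the 2 with the highest RPKM. A further 19, not all printed here, were chosen after their values were seen. Sobic.001G277500 and Sobic.001G277600 were added later in the same way and are in no count of named genes. Alternatives were DESeq2 1.42.0, other scalings and filters, unique reads, a replicate block, single times, an intron covariate and left-out libraries.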

Additional observations from a re-analysis of the deposited data

Results flagged for a closer look

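The effect of leaf removal at 6 h differed from that at 1 h in 27 of the members named, by the interaction test of edgeR with an adjusted p under 0.05. Values are the log2 fold change at 6 h minus that at 1 h. Sobic.002G021900 was named after its values were seen. Among cysteine-rich kinases with an effect lower at 6 h, the differences were -1.75 for Sobic.005G095900, -1.81 for Sobic.005G094800, -2.36 for Sobic.005G096600 and -0.67 for Sobic.008G021400. Among cysteine-rich kinases with an effect lower at 6 h, the differences were -2.03 for Sobic.002G326500, -0.81 for Sobic.010G242300, -2.52 for Sobic.002G327300 and -2.85 for Sobic.009G030600. Among cysteine-rich kinases with an effect higher at 6 h, the differences were 1.31 for Sobic.005G209400 and 0.83 for Sobic.005G210200. Among S-locus lectin kinases with an effect lower at 6 h, the differences were -1.08 for Sobic.002G334900, -1.05 for Sobic.002G333500, -1.43 for Sobic.003G251000 and -1.81 for Sobic.004G264000. Among S-locus lectin kinases with an effect higher at 6 h, the differences were 1.55 for Sobic.009G082700 and 1.85 for Sobic.005G089500. Among L-type lectin kinases with an effect lower at 6 h, the differences were -1.61 for Sobic.008G007200, -1.65 for Sobic.002G377400, -4.94 for Sobic.006G192900 and -3.02 for Sobic.009G026800. Among L-type lectin kinases with an effect lower at 6 h, the difference was -1.62 for Sobic.001G073800. Among wall-associated kinases with an effect lower at 6 h, the differences were -3.09 for Sobic.005G222700, -1.92 for Sobic.006G201700, -4.47 for Sobic.002G021900 and -1.93 for Sobic.006G152200. Among wall-associated kinases with an effect lower at 6 h, the difference was -0.44 for Sobic.010G055000. Among wall-associated kinases with an effect higher at 6 h, the difference was 2.70 for Sobic.006G243700.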

How the results depend on the processing

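Of 192 results for a named gene at a time, 118 were called; 49 of these kept the call in every alternative and 37 lost it without 1 library. Requiring 1 CPM in 9 libraries left 23, 12 and 9 members higher at 1, 3 and 6 h (25.4%, 20.3% and 21.6% of genes). Shares of all genes are not given for single times, the intron covariate, replicate blocks or left-out single libraries. Nor are they given for differences between times or change in intact buds in any alternative. Such counts, here and above, thus do not set the members apart from other genes. With the libraries of 3 h alone, 15 members were higher and 13 lower. With the intron share as a covariate, 34 members were lower at 6 h, 16 changed over time in intact buds and 3 differed in effect between 6 h and 3 h. That last count was 0 with all libraries, 1 with no filter, 1 with unique reads, 3 with DESeq2 and 7 without the 5 libraries of high intron share. The effect of Sobic.009G026800 at 3 h was 0.16 and became -0.87 with the intron covariate, and that of Sobic.005G063600 at 6 h was -0.74 and became 0.096 with unique reads, of which it had 9.12%. The cause was not tested.

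Leaving out 1 library in turn gave 36 to 47 members higher and 18 to 27 lower at 1 h, 19 to 24 and 14 to 23 at 3 h, and 13 to 21 and 14 to 25 at 6 h. Differing effects ranged from 12 to 24 members between 3 h and 1 h, 0 to 2 between 6 h and 3 h, and 27 to 38 between 6 h and 1 h, and 3 to 11 members changed in intact buds.

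Correlations between the deviations of same-letter libraries ran from -0.405 to 0.528. They were positive for replicate d at 6 h (0.528), b at 1 h (0.295) and a at 6 h (0.120), and negative for the other pairs. Both 6 h replicate d libraries are among the 5 of high intron share. The labels name no batch, and the replicate letters were not taken as pairs. A replicate block left 13 members lower at 3 h, 14 differing between 3 h and 1 h and 3 changing in intact buds. A replicate block within each time left 13 lower at 1 h, 6 higher and 2 lower at 3 h, 7 higher and 5 lower at 6 h, 3 differing between 3 h and 1 h, 16 between 6 h and 1 h, and 0 changing in intact buds. At 3 h only replicates b and c, and at 6 h only a and d, occur in both groups. The effect at those times then rests on the matched letters, and fewer residual degrees of freedom remain than in the main fit.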
